A study of Mus musculus with 7 samples.

Results

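The cytochrome P450 genes of the mouse were examined in bulk ATAC-seq of HPC7, a mouse hematopoietic progenitor cell line that grows in medium with stem cell factor. The assay cuts and tags exposed DNA with the Tn5 transposase, and places where the resulting reads accumulate are called open chromatin regions (OCRs). The data were the OCR lists of 7 libraries from separate culture batches, replicates 1, 2 and 4 to 8, to which the labels give 1 condition. Members were the protein-coding genes of GENCODE M21 whose symbol is Cyp, a family number up to 51, a letter and a number, without Cyp24a1, Cyp27b1 and Cyp26a1. This gave 90 of 21938 protein-coding genes, in 35 subfamilies. The OCR names inside the lists begin with VD in replicates 1, 2 and 4 and with EtOH in replicates 5 to 8. Neither the labels nor the study's text explains these names, so whether all cultures were handled alike is not known, and no comparison was made between them.

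Cytochrome P450 enzymes are heme proteins that insert an oxygen atom into small lipophilic molecules. Many members of families 1 to 3 oxidize drugs and foreign compounds in liver and gut, family 4 hydroxylates fatty acids and eicosanoids, and others make or break down steroid hormones, bile acids, oxysterols and retinoids. Blood progenitors are not a main site of these pathways, and chromatin accessibility shows only whether a start site is open, not how much enzyme is made.

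The libraries held between 84593 OCRs in replicate 6 and 132852 in replicate 1. The intensity of an OCR is its fold enrichment, the reads at its summit plus 1 over the background of its library plus 1, and the lowest in a list lay between 1.68 and 2.44, or 12 to 35 reads. A gene without an OCR is therefore one whose start stayed below that height, not one shown to be closed. A gene was called open when an OCR touched the 1 kb on either side of its annotated start. Of 10 blood progenitor markers, 9 were open in all 7 libraries, among them Lyl1 at 266 ± 56.0 (SD, n = 7), Runx1 at 128 ± 69.1 and Kit at 108 ± 25.7, whereas Gata2 had no OCR at the start of its gene record. Of 10 hepatocyte markers, 1 was open in all 7 libraries (Ahsg, 8.89 ± 0.988), Apoa1 was open in 1 library, and the other 8, with Alb, Apoa2, Ttr, Tat and Hnf4a among them, in none.

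Cytochrome P450 genes were open less often than protein-coding genes as a whole in each of the 7 libraries. Between 10 and 13 P450 genes were open per library, a share of 12.2% ± 1.43 (SD, n = 7), against 54.0% ± 1.14 of all protein-coding genes. The P450 share was lowest, at 11.1%, in replicates 2, 4, 5 and 6, and highest, at 14.4%, in replicate 1, which had the longest OCR list. The ratio of the P450 share to the overall share was 0.226 ± 0.0220, with a range from 0.207 to 0.258. The open P450 starts were also lower than open starts in general, with a median fold enrichment per library of 27.8 ± 8.13 against 76.8 ± 13.0.

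**Figure D1:**
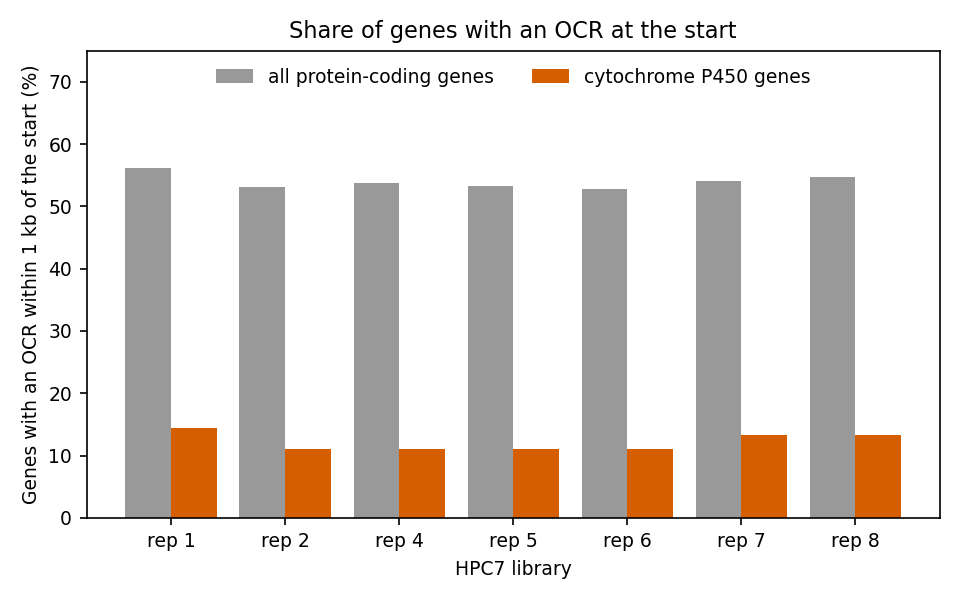
Share of genes with an OCR within 1 kb of the start (%, vertical axis) in each of the 7 HPC7 libraries (horizontal axis), in grey for all 21938 protein-coding genes and in orange for the 90 cytochrome P450 genes. P450 bars lie between 11.1% and 14.4%, and those of all genes between 52.8% and 56.1%.

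Of the 90 genes, 9 (10.0%) were open in all 7 libraries, where the same was true of 51.6% of protein-coding genes. A further 4 were open in 1 to 5 libraries, so that 13 (14.4%) were open at least once, against 57.1% of protein-coding genes. The other 77 genes (85.6%) had no OCR at the start in any library, against 42.9% overall. The members' counts lie far below these background shares, as a description of the list and without a test. Listed from high to low, the 9 genes were Cyp20a1, Cyp46a1, Cyp4f13, Cyp4f16, Cyp2j6, Cyp4f17, Cyp2u1, Cyp2w1 and Cyp4f18.

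The DNA in front of the starts differed between these genes, and the 250 bases upstream of the start are shown for the 2 most open genes, for a CpG-rich gene that had no OCR, and for an open gene and a gene without an OCR from each of 2 gene clusters. They were read from the mm10 genome at the GENCODE starts, 5′ to 3′ along the gene, with CpG dinucleotides in capitals. Cyp20a1 (chr1:60343073-60343322, plus strand) and Cyp46a1 (chr12:108334131-108334380, plus strand) were open in all 7 libraries.
Cyp20a1: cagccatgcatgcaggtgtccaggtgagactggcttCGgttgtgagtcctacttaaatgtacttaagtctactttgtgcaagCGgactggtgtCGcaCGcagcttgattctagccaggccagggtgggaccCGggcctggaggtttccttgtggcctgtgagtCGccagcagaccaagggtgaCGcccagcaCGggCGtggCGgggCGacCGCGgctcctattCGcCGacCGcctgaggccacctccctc
Cyp46a1: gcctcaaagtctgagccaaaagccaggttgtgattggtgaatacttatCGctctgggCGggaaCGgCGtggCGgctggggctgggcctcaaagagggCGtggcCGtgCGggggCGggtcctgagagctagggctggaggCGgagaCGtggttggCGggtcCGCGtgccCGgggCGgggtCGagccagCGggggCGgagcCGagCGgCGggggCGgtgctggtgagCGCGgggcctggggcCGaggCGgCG
Cyp2r1 (chr7:114562973-114563222, minus strand), which hydroxylates vitamin D, was open in none.
Cyp2r1: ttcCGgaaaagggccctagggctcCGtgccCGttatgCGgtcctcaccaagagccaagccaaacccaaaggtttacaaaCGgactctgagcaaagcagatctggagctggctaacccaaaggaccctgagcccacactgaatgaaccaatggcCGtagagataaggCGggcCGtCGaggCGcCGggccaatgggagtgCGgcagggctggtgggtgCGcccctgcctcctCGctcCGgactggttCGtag
In the Cyp4f cluster, Cyp4f13 (chr17:32947403-32947652, minus strand) was open in all 7 libraries and Cyp4f14 (chr17:32917343-32917592, minus strand) in none.
Cyp4f13: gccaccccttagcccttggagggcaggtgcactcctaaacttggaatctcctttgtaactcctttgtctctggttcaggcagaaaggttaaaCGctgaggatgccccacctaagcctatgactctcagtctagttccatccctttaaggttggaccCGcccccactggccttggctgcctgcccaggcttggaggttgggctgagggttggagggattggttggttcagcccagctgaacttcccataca
Cyp4f14: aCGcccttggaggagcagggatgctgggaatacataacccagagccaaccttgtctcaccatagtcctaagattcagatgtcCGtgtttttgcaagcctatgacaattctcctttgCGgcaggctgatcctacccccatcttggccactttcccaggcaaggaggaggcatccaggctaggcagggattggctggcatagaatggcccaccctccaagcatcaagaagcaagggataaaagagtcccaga
In the Cyp2j cluster, Cyp2j6 (chr4:96553662-96553911, minus strand) was open in all 7 libraries and Cyp2j5 (chr4:96664155-96664404, minus strand) in none.
Cyp2j6: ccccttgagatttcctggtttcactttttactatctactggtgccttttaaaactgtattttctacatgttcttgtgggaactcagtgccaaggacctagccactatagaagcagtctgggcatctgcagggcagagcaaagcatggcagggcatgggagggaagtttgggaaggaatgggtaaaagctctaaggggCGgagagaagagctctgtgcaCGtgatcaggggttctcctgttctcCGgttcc
Cyp2j5: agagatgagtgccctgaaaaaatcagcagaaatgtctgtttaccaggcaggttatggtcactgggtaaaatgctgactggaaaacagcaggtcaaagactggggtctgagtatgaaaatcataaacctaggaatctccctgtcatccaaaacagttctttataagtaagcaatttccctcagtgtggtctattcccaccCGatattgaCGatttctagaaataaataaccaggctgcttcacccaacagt
Cyp20a1 and Cyp2r1 had the same number of CpGs, 16 each, at 62.4% and 61.6% G and C, and Cyp46a1 had 28 at 73.2%. Cyp4f13 had 2 CpGs and Cyp4f14 had 3, while Cyp2j6 had 3 and Cyp2j5 had 2. In these 250 bases the 2 genes shown from a cluster thus differed by 1 CpG. Over the 1 kb centred on the start, the ratio of observed to expected CpG was higher at the open gene. It was 0.239 at Cyp4f13 and 0.0922 at Cyp4f14, and 0.251 at Cyp2j6 and 0.131 at Cyp2j5.

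Cyp20a1, an orphan P450 with no settled substrate, had the most open start of the family. Its fold enrichment was lowest in replicate 6, at 136, had a median of 218, and was highest in replicate 5, at 262 (210 ± 41.2, SD, n = 7). These heights stood on 868 to 4652 reads at the summit, and they placed the gene at percentile 97.9 ± 0.749 of all protein-coding genes, where genes without an OCR share percentile 23.0 on average. The OCR, 1662 to 1944 bp wide, covered the start in each library, with the summit 63 to 86 bp downstream in a coding exon. Among the genes of its own chromosome alone Cyp20a1 was at percentile 93.4.

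Cyp46a1, which hydroxylates the side chain of cholesterol and is best known from neurons, came second. Its fold enrichment ran from 104 in replicate 6 over a median of 141 to 155 in replicate 4 (133 ± 19.6), at percentile 89.4 ± 2.16. The OCR was the widest of the family, 2000 to 2549 bp, and its summit lay at -158 to -153 bp, upstream of the start. Cyp46a1 was the only open one of the 6 bile acid and cholesterol genes. Cyp7a1, the rate-limiting enzyme of bile acid synthesis, and Cyp7b1, Cyp8b1, Cyp27a1 and Cyp39a1 had no OCR within 1 kb in any library.

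Family 4, the fatty acid hydroxylases, held 4 of the 9 open genes, all in the Cyp4f subfamily. Cyp4f13 ranged from 61.2 in replicate 6 over a median of 95.3 to 117 in replicate 5 (92.5 ± 18.6, percentile 78.3), with the OCR over the start. Cyp4f16 ranged from 31.9 over 56.2 to 66.3 (55.1 ± 12.4, percentile 64.5), and Cyp4f17 from 18.1 over 28.1 to 33.2 (26.8 ± 4.66, percentile 55.8). These 3 genes stand in 1 cluster on chromosome 17, and their starts were covered in each library, although the Cyp4f17 summit lay 304 to 474 bp downstream of its start. Cyp4f18, which oxidizes leukotriene B in mouse neutrophils, was the fourth, with a fold enrichment from 6.57 over 9.36 to 12.4 (9.37 ± 2.24). Its start itself was not covered: the OCR began 841 to 883 bp downstream, in an intron on chromosome 8, with the summit 1044 to 1093 bp from the start.

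Each gene open in all 7 libraries ranked lower when set only against its own chromosome, and the family 4 genes fell furthest. There Cyp4f13 was at percentile 65.4 ± 2.19, Cyp4f16 at 55.2, Cyp4f17 at 49.3 and Cyp4f18 at 40.2. The smallest drop was at Cyp2u1, from 53.4 to 53.1. The part of the chromosome in the height of these starts was not tested. Of the 17 family 4 genes, 12 had no OCR at the start in any library, among them all 5 Cyp4a genes, which make omega-hydroxylated fatty acids in liver and kidney.

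Families 2 and 3, without Cyp2r1, hold 54 genes and 3 of the open ones. Cyp2j6, of a subfamily that epoxidizes arachidonic acid, ranged from 28.5 in replicate 6 over a median of 42.3 to 56.0 in replicate 4 (42.1 ± 9.34, percentile 60.0), with the summit 31 to 66 bp downstream of the start. Cyp2u1, a fatty acid hydroxylase, ranged from 11.7 over 16.9 to 21.0 (16.9 ± 3.16, percentile 53.4). An antisense gene, 4930534D22Rik, starts 580 bp from the median summit of the Cyp2u1 OCR, and ATAC-seq cannot assign an OCR to one of 2 starts so close together. Cyp2w1, known from fetal gut and colon tumors, ranged from 9.70 in replicate 4 over 11.2 to 16.7 (13.0 ± 3.30, percentile 52.3). As at Cyp4f18 its highest OCR was intronic: it began 686 to 848 bp downstream of the start, with the summit at 1058 to 1133 bp. In replicates 1 and 8 another OCR lay nearer to the start, at 506 and 642 bp.

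**Figure D2:**
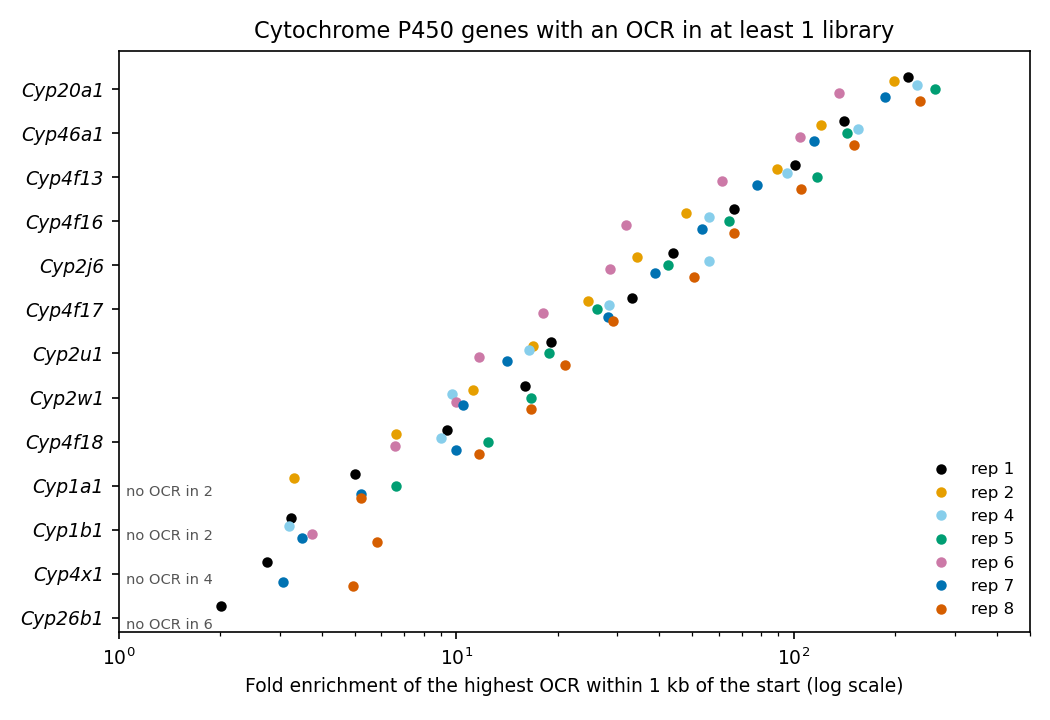
Fold enrichment (horizontal axis, log scale, no unit) of the highest OCR within 1 kb of the start for the 13 cytochrome P450 genes open in at least 1 library (vertical axis), 1 point per library, with the number of libraries lacking an OCR written at the left. The genes run from Cyp20a1, between 136 and 262, down to Cyp26b1, with a single point at 2.01, and replicate 6 lies lowest at 8 of the top 9 genes.

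The order of the 9 genes was the same throughout the libraries. Each gene was higher than the next lower one in 7 of 7 libraries, and the mean log2 differences ran from 0.38 ± 0.22 (Cyp4f16 over Cyp2j6) to 0.76 ± 0.15 (Cyp4f13 over Cyp4f16, SD, n = 7). The exact two-sided sign-flip permutation test over libraries gave p = 0.0156 for each of the 8 pairs, adjusted 0.0156, which is the smallest p that 7 libraries allow. The order was set on the same values, and with every difference of 1 sign the p is fixed whatever their size, so the test says only that the order recurred in each library. Some differences were small: in replicate 4, Cyp4f16 was at 56.2 and Cyp2j6 at 56.0. With percentiles on the own chromosome in place of fold enrichment, 6 of the 8 pairs kept their direction, and 2 turned: Cyp2j6 then stood above Cyp4f16 and Cyp2u1 above Cyp4f17, each in 7 of 7 libraries. Replicate 6, whose open protein-coding starts had the lowest median (55.5), was the lowest library at 8 of the 9 genes.

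The OCR covered the annotated start in each library for 7 of the 9 genes and lay beside it for Cyp2w1 and Cyp4f18. These 2 genes were not open when the window was 500 bp or when the summit itself had to lie within 1 kb. No summit of the 9 genes lay within 1 kb of the start of another protein-coding gene.

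**Figure D3:**
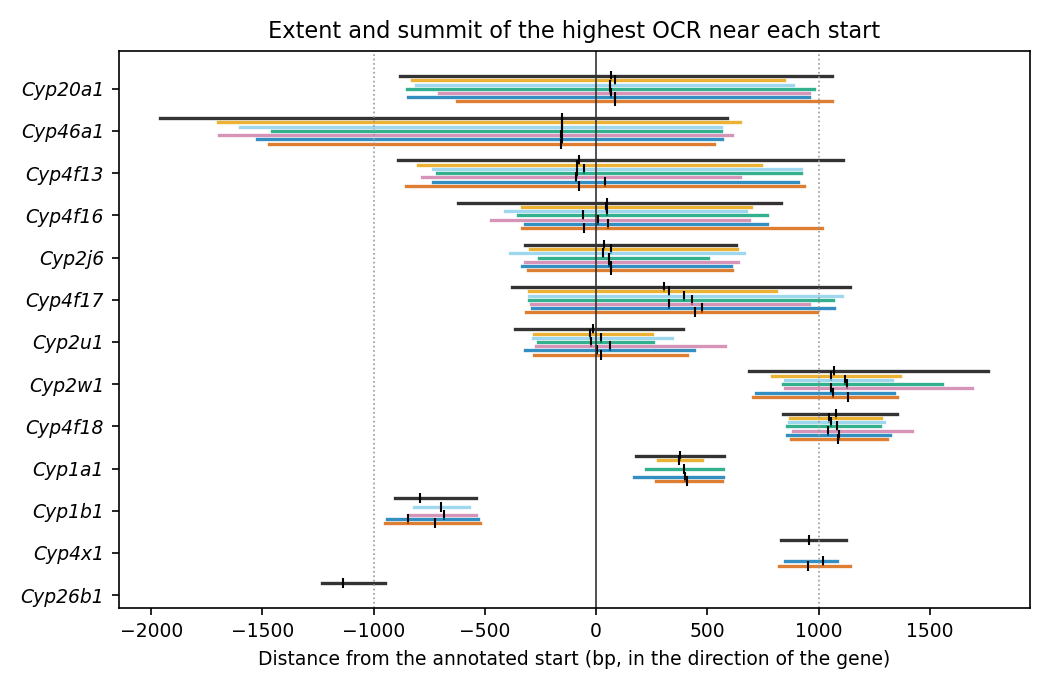
Extent (lines, 1 per library from replicate 1 at the top to replicate 8, in the same colors as the plot of fold enrichment) and summit (black ticks) of the highest OCR near the start of each of the 13 genes, as distance from the annotated start in bp along the gene; dotted lines mark 1 kb. OCRs cross the start at the 7 genes from Cyp20a1 to Cyp2u1 and lie to 1 side of it at the other 6.

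The 4 genes open in only some libraries had low OCRs on few reads. Cyp1a1, the classic target of the aryl hydrocarbon receptor, was open in replicates 1, 2, 5, 7 and 8, at 5.01, 3.31, 6.61, 5.24 and 5.24. The gene record of Cyp1a1 begins with the more upstream of its protein-coding transcripts, 9685 bp before the next one, and the OCR lay 371 to 408 bp downstream of the upstream start. Further inside the gene, an intronic OCR from 4.38 to 9.17 was present in all 7 libraries, with its summit 1323 bp from the start of a protein-coding Cyp1a1 transcript. Cyp1b1, a further target of that receptor, was open in replicates 1, 4, 6, 7 and 8, at 3.23, 3.19, 3.75, 3.49 and 5.83, with the summit at -845 to -684 bp, upstream of the start. Both genes were thus open at the start in 5 of 7 libraries and missing in different ones, while Cyp1a2, the third gene of family 1, was open in none. Cyp4x1, a brain P450 of family 4, was open in replicates 1, 7 and 8, at 2.76, 3.06 and 4.95. Its median summit was nearer to the start of the antisense gene Cyp4x1os (506 bp) than to its own (955 bp). Cyp26b1, which degrades retinoic acid, was open in replicate 1 alone, at 2.01, on 42 reads (exact Poisson 95% interval 30.3 to 56.8, counting error only). These 4 genes were seen most in replicates 1, 7 and 8, which had 105113 to 132852 OCRs.

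The Cyp26b1 OCR was the member nearest inside the 1 kb limit, 949 bp from the start. The nearest outside it was Cyp27a1, whose closest OCR was 1382 bp away in the median library, and in a single library Cyp3a16 had one at 1256 bp. For the 77 genes without an OCR at the start, the closest OCR was a median of 33026 bp away, and by each gene's median over the libraries 10 genes had one within 5 kb, 47 lay over 20 kb and 18 over 100 kb from one. Distances for other protein-coding genes without an OCR were not measured, so these counts describe the list alone.

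By subfamily, 6 of 35 had a gene open in all libraries, 4 a gene open in some, and 25 had none. Cyp4f had 4 of 9 genes open in all libraries, near the 51.6% of protein-coding genes, and Cyp2j 1 of 8. Of the 25 subfamilies with a single gene, 4 had it open in all libraries: Cyp20a, Cyp2u, Cyp2w and Cyp46a. In 18 of the 25 the gene was open in no library. None of the 15 Cyp2c, 8 Cyp2d, 7 Cyp3a, 5 Cyp2b and 4 Cyp2a genes, which include the main drug-metabolizing enzymes of the liver, was open in any library. The same held for the 6 genes of steroid hormone synthesis, Cyp11a1, Cyp11b1, Cyp11b2, Cyp17a1, Cyp19a1 and Cyp21a1. Of 6 other marker genes of steroid-making cells, Star (4.32 ± 0.802) and Mc2r (5.20 ± 0.973) had a low OCR in all 7 libraries and Lhcgr in 4, while Nr5a1, Hsd3b1 and Hsd3b2 had none.

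Copies within a subfamily can be so alike that a read aligns to more than 1 of them, and how such reads were treated is not given in the sources used here. Within 1 kb of the start, at least 10% of the 50-base words were shared with another P450 start at 17 of the 77 genes without an OCR and at 1 of the 9 open genes (Cyp4f16, 16.2%). A share of 50% or more was reached only by Cyp2a4 and Cyp2a5, at 52.0% each, and 31 of the 77 had none. By the study's methods the reads were paired and longer than these words, so a shared word does not show that a read aligned to more than 1 place. Other copies, such as pseudogenes, were not compared.

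P450 genes that lie in clusters stood in regions with few OCRs, with Cyp4f as the exception. In the Cyp2c cluster, 14 genes over 1180 kb (chr19:39007019-40187333), the libraries held 1 or 2 OCRs each, or 0.968 ± 0.320 per Mb, against 40.0 ± 6.43 per Mb in the genome and 54.7 ± 9.83 on chromosome 19. The Cyp2b cluster had 1.96 ± 1.43 per Mb, Cyp4a 2.63 with 1 OCR in each library, and Cyp2d 3.03 with 1 or 2 OCRs in each. Cyp2j had 6.73 ± 1.49 and Cyp2a 7.24 ± 3.42, and Cyp3a had 3 to 10 OCRs in 768 kb, 0.204 ± 0.0972 times the density of the genome. The Cyp2a and Cyp2b regions overlap on chromosome 7.

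The Cyp4f cluster (chr17:32452723-32947402, 8 genes) held 21 to 34 OCRs per library, 52.6 ± 10.8 per Mb. This was 1.31 ± 0.104 times the density of the genome, but 0.714 ± 0.0663 times that of chromosome 17, which had 73.2 ± 10.4 per Mb. Over the 8 clusters together, with 58 genes and 4 open ones, the density was 0.213 ± 0.0184 times that of the genome. This counts the stretch shared by Cyp2a and Cyp2b in both, and it was 0.229 ± 0.0174 with that stretch counted once and 0.104 ± 0.0259 without Cyp4f.

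**Figure D4:**
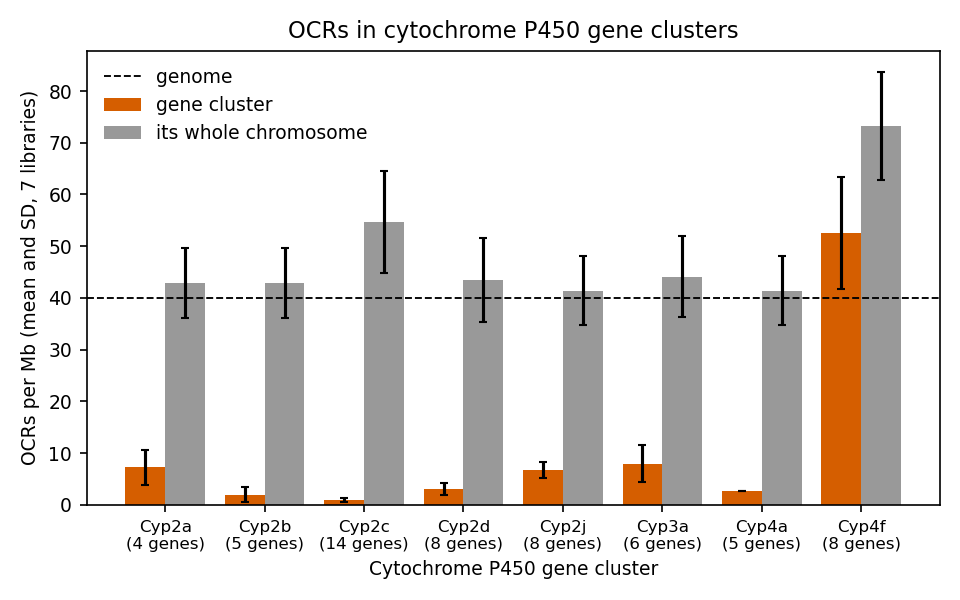
OCRs per Mb (vertical axis, mean and SD over 7 libraries) in each cytochrome P450 gene cluster (orange) and on its whole chromosome (grey), with the genome mean of 40.0 as a dashed line. The Cyp4f bar, at 52.6, stands above the genome line and below its chromosome, and the other 7 clusters lie below the genome line and below their chromosomes.

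Further inside the genes, beyond 1 kb from the start, 22 of the 90 (24.4%) had an OCR in all 7 libraries, against 47.7% of protein-coding genes, although the median P450 gene was longer (22605 against 17425 bp). Of these 22 genes, 11 (50.0%) had no OCR at the start in any library, against 24.1% of the 10459 protein-coding genes with such an OCR. Of the genes with no OCR at the start, 11 of 77 P450 genes and 2521 of 9417 protein-coding genes had one inside in all 7 libraries. Counted this way, the P450 share was the lower one. The highest was in an intron of Cyp4f39, a skin fatty acid hydroxylase, with a fold enrichment from 59.1 over 88.9 to 118 (90.9 ± 21.2), 26220 bp from the start of the gene record. This summit lay 692 bp from the start of a processed Cyp4f39 transcript without coding sequence. In Cyp17a1, the lyase and hydroxylase of steroid synthesis, an intronic OCR 2280 bp from the start ranged from 14.4 over 19.8 to 30.7 (21.6 ± 5.40), with the summit 399 bp from the start of a Cyp17a1 transcript that retains an intron. Cyp26b1, open at its start in replicate 1 alone, had an intronic OCR 3490 bp from the start in all 7 libraries, from 23.3 over 38.6 to 44.7 (36.2 ± 7.64), 1780 bp from the nearest start of its protein-coding transcripts. Cyp2j9 had 1 at 19.8 ± 4.28 and Cyp27a1, which acts in bile acid and oxysterol synthesis, had 1 at 8.45, 2147 bp from the start. No OCR at all, at the start or inside the gene, was listed in any library for 53 of the 90 genes (58.9%), against 26.1% of protein-coding genes.

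Most P450 starts are poor in CpG. In the 1 kb centred on the start, the median ratio of observed to expected CpG was 0.151 over the 90 genes and 0.553 over all protein-coding genes. The open P450 genes had a median of 0.251, from 0.0717 at Cyp4f18 to 0.851 at Cyp46a1, against 0.734 for protein-coding genes open in all 7 libraries. At Cyp2w1 and Cyp4f18 the OCR lay outside this 1 kb, so their ratios do not describe the OCR itself. P450 genes with no OCR had a median of 0.145, against 0.234 for such genes overall. A ratio of at least 0.6 was reached by 6 P450 genes: Cyp46a1 (0.851), Cyp20a1 (0.747) and Cyp2u1 (0.706), which were open, and Cyp2r1 (0.758), Cyp4v3 (0.691) and Cyp39a1 (0.677), which were not.

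So 3 of 6 CpG-rich P450 starts (50.0%) were open, against 82.1% of 10076 CpG-rich protein-coding starts, and 6 of 84 CpG-poor ones (7.14%), against 25.8%. The closest OCR to the start of Cyp2r1 was 53732 bp away in the median library, that of Cyp4v3 11796 bp and that of Cyp39a1 21874 bp. Both shares are descriptions over few genes and were not tested.

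**Figure D5:**
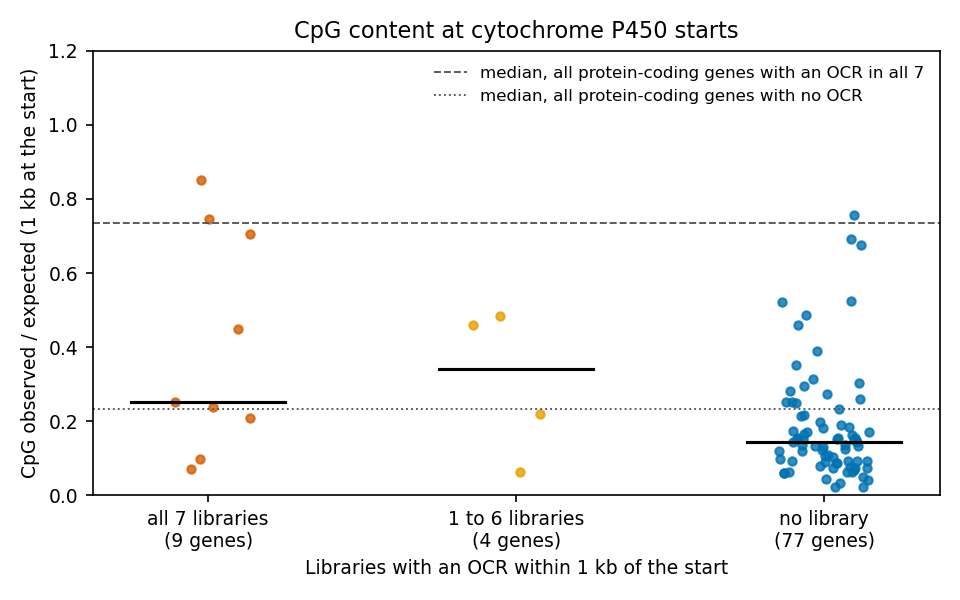
Ratio of observed to expected CpG in the 1 kb centred on the start (vertical axis) for the 90 cytochrome P450 genes, grouped by the number of libraries with an OCR at the start; points are genes, spread sideways for display, and black bars are medians. Dashed and dotted lines are the medians of all protein-coding genes open in 7 libraries (0.734) and in none (0.234), and 3 points in each of the outer groups lie above 0.6.

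In the 300 bases from 250 before to 50 after the start, 5 motifs were counted on both strands, none of which contains another. At the open genes Cyp2w1 and Cyp4f18 the OCR lay outside these bases, so their matches are not in the OCR. TATAAA, the letters of the TATA box, was found at 0 of the 9 open genes, 29 of the 77 without an OCR (37.7%) and 12.6% of all protein-coding genes. Among protein-coding genes with an OCR in all 7 libraries its share was 7.19%, and among those with none 19.2%. The GC box GGGCGG was found at 6 of 9 open genes (66.7%), 8 of 77 (10.4%) and 43.0% of all genes, with 61.2% of the genes open in all 7 libraries and 22.4% of those without an OCR. GCGTG, the core bound by the aryl hydrocarbon receptor with its partner, was found at 5 of 9, 10 of 77 (13.0%) and 36.8% of all genes, with 50.4% of the open ones and 21.9% of those without an OCR. For these 2 motifs the open P450 genes were thus near the share of open genes in general. CCAAT was found at 6 of 9, 38 of 77 (49.4%) and 39.0%. The letters AGATAA, which blood transcription factors of the zinc finger family led by Gata1 recognize, were found at 1 of 9 (Cyp4f18), 16 of 77 (20.8%) and 10.2%. Among the sequences shown, TATAAA is in that of Cyp2j5, and GGGCGG occurs 5 times in that of Cyp46a1, once each in those of Cyp4f13 and Cyp2j6, and not in the other 4, counting both strands. A match describes these letters and says nothing of binding.

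The genes that supply P450 enzymes with electrons and heme had OCRs at nearly all starts, where 51.6% of protein-coding genes were open in all 7 libraries. Of 9 electron donors and their partners, 8 were open in all 7 libraries, with Pgrmc2 (176 ± 31.2), Fdxr, the mitochondrial ferredoxin reductase (144 ± 24.3), and Cyb5r3 (128 ± 28.4) the highest, while Cyb5a was open in none. Por, the reductase of all microsomal P450 enzymes, was low, from 7.20 to 16.3 (11.2 ± 3.83). All 8 heme synthesis genes were open in each library, with Ppox (175 ± 35.6) the highest. Of 15 receptors and regulators of P450 genes, 9 were open in all 7 libraries, a share near that background, with Srebf2 (168 ± 30.3), Arnt (160 ± 35.3) and Rxrb (159 ± 34.9) the highest, and 6 had no OCR at the start: Ahr, Nr1i2, Nr1i3, Ppara, Nr1h4 and Nr5a2. Thus the start of Arnt, the partner of the aryl hydrocarbon receptor, was open and that of the receptor gene Ahr was not, at the starts of their gene records.

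Of the 9 P450 genes whose symbols have another form, Cyp51, a sterol demethylase of cholesterol synthesis in all cells, was open in all 7 libraries, from 80.3 to 146 (122 ± 25.6, percentile 86.7). Tbxas1, the thromboxane synthase of platelets and macrophages, was also open in all, from 40.0 to 75.1 (60.7 ± 12.5). Cyp2ab1 was open in 4 libraries, at 3.93 or less, and Ptgis, the prostacyclin synthase, and the other 5 were open in none.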

How the data were processed

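According to the study's methods, adapters were removed with Cutadapt, alignment to mm10 used BWA-mem, and the authors called peaks with MACS2. The deposited lists are 1 per library. Versions, options and any shift for the Tn5 cut are not given in the sources used here. Each deposited peak carries a fold enrichment (a ratio of summit reads to background, each plus 1), its -log10 p and -log10 q, a score derived from q and a summit offset, and values were not normalized between libraries.

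All fold enrichments were whole multiples of 1 step per library within 5% of a step, which gave the reads at each summit and a background of 4.44 to 20.4 reads. The Poisson probability of these differed from the deposited -log10 p by a median of at most 9.08e-06. Depth thus differed between libraries, and intervals cover counting error only. Gene starts came from GENCODE M21, and an overlap of 1 bp counted. Percentiles count ties as the middle rank. A cluster was 3 or more genes of 1 subfamily with gaps up to 1 Mb. Roles were assigned from general knowledge.

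Libraries form 1 group, so no groups were compared. Neighbours in the order were compared by an exact sign-flip permutation test (128 patterns) with Benjamini-Hochberg adjustment. Named were all members open in any library, and from the other lists up to 5 of the highest and up to 5 of those without an OCR. Outside this rule, Por is named for its role, Lmo2 and Lhx2 as the lowest open blood markers, and all 6 regulators without an OCR are given. Genes named for OCRs inside them, and those shown by sequence, were chosen after their values were seen. The members and lists were chosen with earlier results of these data known. Alternatives were other windows, starts, thresholds and list lengths, each library left out, and, added after seeing the data, P450 genes of other symbols, percentiles per chromosome and other poolings of the clusters. The overlap and test functions were tested on simulated data. Scripts ran under scipy 1.17.1, pandas 2.3.3, numpy 2.4.6, pysam 0.24.0 and Python 3.11.15. Single-nucleus data were not used.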

Additional observations from a re-analysis of the deposited data

Results flagged for a closer look

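Of 38 measures compared over the 7 libraries with Dixon's test, 2 had a library far from the others, and chance gives about 1 in 20. The density of OCRs in the Cyp2c cluster was 1.69 per Mb in replicate 7 and 0.847 in the nearest other library, which is a difference between 2 OCRs and 1. The fold enrichment of the OCR inside Cyp2e1, an ethanol-oxidizing P450 of the liver, was 6.12 in replicate 8, and the nearest other library had 4.78 (mean over all 7, 4.51 ± 0.779).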

How the results depend on the processing

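No paired analysis was possible because the labels put all 7 libraries in 1 group, so no second group shares their numbers, and the neighbour test pairs genes within a library instead. Of 100 values under alternatives, 87 stayed within the spread between libraries or within 1.5 times the count and 13 moved. Of the 8 neighbour pairs, 2 turned on percentiles per chromosome, Cyp4f16 against Cyp2j6 (-3.55) and Cyp4f17 against Cyp2u1 (-3.79). The share of P450 genes open per library was 8.57% with a window of 500 bp, 18.6% with 3 kb, 9.68% when the summit had to lie within 1 kb and 13.7% with the P450 genes of other symbols. No share of all protein-coding genes is given for these settings, so the comparison with them holds for the main setting alone. The number open in all libraries was 14 with 3 kb, which added Cyp17a1, Cyp27a1, Cyp2e1, Cyp4f39 and Cyp8b1 to the 9, and 7 with 500 bp, which lost Cyp2w1 and Cyp4f18. With the starts of all protein-coding transcripts it was 10, with Cyp26b1 added. The number open at least once was 8 with 500 bp and 21 with 3 kb. A -log10 q of at least 5, or the top 84593 OCRs of each library, kept the same 9 genes. The top 84593 OCRs moved the density in the clusters from 8.54 to 6.72 OCRs per Mb. On the full lists, the density without the Cyp4f cluster was 4.18. Leaving out each library in turn left 9 genes open in all and 12 or 13 at least once. It also left all 8 neighbour differences, which could not turn, since each gene was higher in 7 of 7 libraries. Percentiles among all protein-coding genes keep the order within a library, so they could not turn a pair either. These settings are counted among the 87 values but do not test the order. The 4 genes open in some libraries had 17 to 106 reads at the summit, and the lowest OCR listed in a library had 12 to 35 reads.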
